A study of Homo sapiens with 4 samples.

Results

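HOX genes encode homeodomain transcription factors that give cells of the embryo their position along the body axis. In humans they lie in 4 clusters, and within a cluster the order of the genes follows the order in which they are used along the body, with low paralogue numbers towards the head and high numbers towards the tail. Adult epithelia keep part of this code, Polycomb complexes hold unused stretches of the clusters silent, and methylation of HOX promoters is common in carcinomas. Every row of the expression table whose symbol is HOXA, HOXB, HOXC or HOXD followed by a number was taken, with the noncoding RNAs HOTAIR, which lies in the HOXC cluster, and HOTTIP, which lies beside HOXA13. This gave 39 HOX genes and 2 noncoding RNAs, 41 members of 25548 gene symbols, and no member had a repeated row.

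RNA was sequenced from FaDu, an established squamous carcinoma line of the hypopharynx, in 2 groups of 1 library each, from total RNA with a library kit for stranded mRNA. The treated cells received 5 µM 5-aza-2'-deoxycytidine (Aza), which traps DNA methyltransferases and lowers DNA methylation, on days 1 to 3, and on day 3 also 100 nM of the histone deacetylase inhibitor trichostatin A (TSA). The control cells received DMSO, and the protocol names ethanol as the vehicle of TSA while the label of the controls names DMSO alone. Aza and TSA were given together, so the share of each cannot be told apart. The same design in a second line, UMSCC47 (3 µM Aza and 300 nM TSA, against its vehicle), was deposited in the same table and is not described here, since values in its columns do not match the genes that their rows name.

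With 1 library per group no difference below has a replicate check and none carries a p-value. Values are FPKM, fragments per kilobase of transcript and per 1000000 mapped fragments, which allow levels of genes to be compared per length. The columns sum to 516692 FPKM for the treated library and 491963 FPKM for the DMSO library. GAPDH, a glycolytic enzyme, was 2971 FPKM in the treated and 2590 FPKM in the DMSO library of FaDu, against 0.177 and 0.290 FPKM in the treated and DMSO columns of UMSCC47. Over all gene symbols the 2 FaDu columns had a Spearman correlation of 0.908 and the 2 UMSCC47 columns one of 0.124. All 7 squamous markers were present, between 23.2 and 1341 FPKM in the treated library and between 15.2 and 1164 FPKM in the DMSO library. They did not move together: KRT5 was 226 FPKM in the treated and 687 FPKM in the DMSO library, TP63 23.2 and 73.7 FPKM, and KRT14 147 and 49.8 FPKM. Markers of other cell types were low, and all but PTPRC and KDR were higher in the treated library. PTPRC, of leukocytes, was 0.0385 FPKM in the treated and 0.0513 FPKM in the DMSO library, and KDR was listed at 0 in both. The 6 fibroblast markers summed to 5.19 FPKM in the treated and 0.749 FPKM in the DMSO library, the 4 endothelial markers to 3.73 and 0.943 FPKM, and the 5 leukocyte markers to 5.05 and 1.74 FPKM in the same order. CD14 made up most of the leukocyte sums, at 4.59 FPKM in the treated and 1.62 FPKM in the DMSO library. In the DMSO library 5 of the 6 fibroblast, 2 of the 4 endothelial and 2 of the 5 leukocyte markers were listed at 0, and in the treated library the endothelial receptor KDR was. Their part in the HOX values was not tested.

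The change of a gene is the log2 ratio of treated to DMSO FPKM after 1 FPKM was added to each, a scale that makes changes of weakly expressed genes look smaller. A gene counts as measured if it reached 1 FPKM in at least 1 library, and as called if it differed by 2-fold on that scale. Most HOX genes that were on in DMSO cells differed by less than 2-fold in treated cells. Of the 41 members 32 were measured. Of these 3 were called higher (HOXC11, HOXC13 and HOXD4), 1 was called lower (HOXD10) and 28 were neither. Among all 13558 genes measured, 16.1% were called higher and 5.21% lower, beside 9.38% and 3.12% of the measured HOX members. A gene that is silent in DMSO cells can be measured only by being higher, so the filter favours that direction. Among the 28 members at 1 FPKM or more in the DMSO library, 1 was higher (HOXC13) and 1 lower (HOXD10), against 10.5% and 5.85% of the 12062 genes at that level. The median log2 change of the 32 measured members was 0.05 (quartiles −0.30 and 0.56), and that of all measured genes was 0.13 (quartiles −0.38 and 0.73). The sign of the members' median was negative, at −0.42, once the trend of the change with GC content was subtracted, as described further on, and at −0.05 over the 28 members at 1 FPKM or more in the DMSO library.

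The regions before 4 HOXD genes are shown because these neighbours of one cluster behaved differently: HOXD1 and HOXD4 were at or near 0 in the DMSO library and higher in the treated library, HOXD10 was the only member called lower, and HOXD11 kept its level. Each is the 250 bases up to the RefSeq start of the gene on the plus strand of GRCh38.p14, 5′ to 3′, with CpG dinucleotides, the sites of DNA methylation, in capitals. The windows are chr2:176188418-176188667 for HOXD1, chr2:176151300-176151549 for HOXD4, chr2:176116528-176116777 for HOXD10 and chr2:176107030-176107279 for HOXD11.
HOXD1: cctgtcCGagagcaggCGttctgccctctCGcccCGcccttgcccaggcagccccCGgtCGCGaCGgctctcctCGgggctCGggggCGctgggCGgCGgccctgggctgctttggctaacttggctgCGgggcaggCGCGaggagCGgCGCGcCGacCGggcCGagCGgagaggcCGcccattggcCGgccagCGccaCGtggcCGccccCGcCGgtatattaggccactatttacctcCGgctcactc
HOXD4: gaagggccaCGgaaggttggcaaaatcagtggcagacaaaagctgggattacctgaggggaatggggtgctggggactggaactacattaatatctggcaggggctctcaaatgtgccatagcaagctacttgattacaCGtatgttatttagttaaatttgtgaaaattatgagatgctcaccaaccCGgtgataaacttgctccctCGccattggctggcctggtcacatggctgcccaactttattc
HOXD10: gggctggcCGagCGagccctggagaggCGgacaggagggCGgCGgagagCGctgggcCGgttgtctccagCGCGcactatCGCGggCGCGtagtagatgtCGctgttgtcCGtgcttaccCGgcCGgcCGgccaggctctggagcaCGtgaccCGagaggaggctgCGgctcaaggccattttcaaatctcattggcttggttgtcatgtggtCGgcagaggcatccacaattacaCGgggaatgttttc
HOXD11: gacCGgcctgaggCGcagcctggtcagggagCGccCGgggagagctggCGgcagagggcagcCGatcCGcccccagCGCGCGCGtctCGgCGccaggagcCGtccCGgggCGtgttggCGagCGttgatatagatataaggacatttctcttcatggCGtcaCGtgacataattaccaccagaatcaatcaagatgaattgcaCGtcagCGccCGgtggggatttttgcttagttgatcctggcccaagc

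The HOXD1 window held 31 CpG, the HOXD4 window 4, and the HOXD10 and HOXD11 windows 23 each. Of 35116 such windows in the RefSeq table, 10.9% held at least as many as HOXD1, 70.7% at least as many as HOXD4 and 25.8% at least as many as HOXD10 or HOXD11. The motif searched was CG, which reads the same on both strands. HOXD1 and HOXD4 therefore had the most and the fewest CpG of the 4. Across HOXD, 8 of the 9 genes had a window, and the others held 28 (HOXD8), 21 (HOXD3 and HOXD13) and 16 (HOXD12) CpG. Windows were found for 21 of the 41 members, 51.2%, under the 80% set for a check over the whole set, so no relation of CpG to the change was computed. HOXC4 and HOXC5 have the same window, because RefSeq starts both at the same base. DNA methylation was not measured.

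In the treated library 30 of the 39 HOX genes reached 1 FPKM, and in the DMSO library 28 did. The levels were modest: the highest member was HOXA10 in both, at 16.3 FPKM in the treated and 18.03 FPKM in the DMSO library, above 82.7% and 85.4% of all gene symbols in those libraries. The 39 genes summed to 148.8 FPKM in the treated and 148.0 FPKM in the DMSO library. The order of the genes by level was largely kept, with a Spearman correlation of 0.86 between the libraries over the 39 genes, and 8 genes were among the 10 highest members of each. In the DMSO library the order began with HOXA10, HOXB7 (17.2 FPKM), HOXD10 (13.5), HOXA7 (8.93), HOXD11 (8.04) and HOXA9 (8.03), each within 2-fold of the next. In the treated library it began with HOXA10, HOXA9 (13.3 FPKM), HOXC10 (11.6), HOXB7 (9.99), HOXD11 (9.41) and HOXA7 (8.67), again each within 2-fold of the next, and with 1 library a group the spread behind these orders is unknown.

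**Figure D1:**
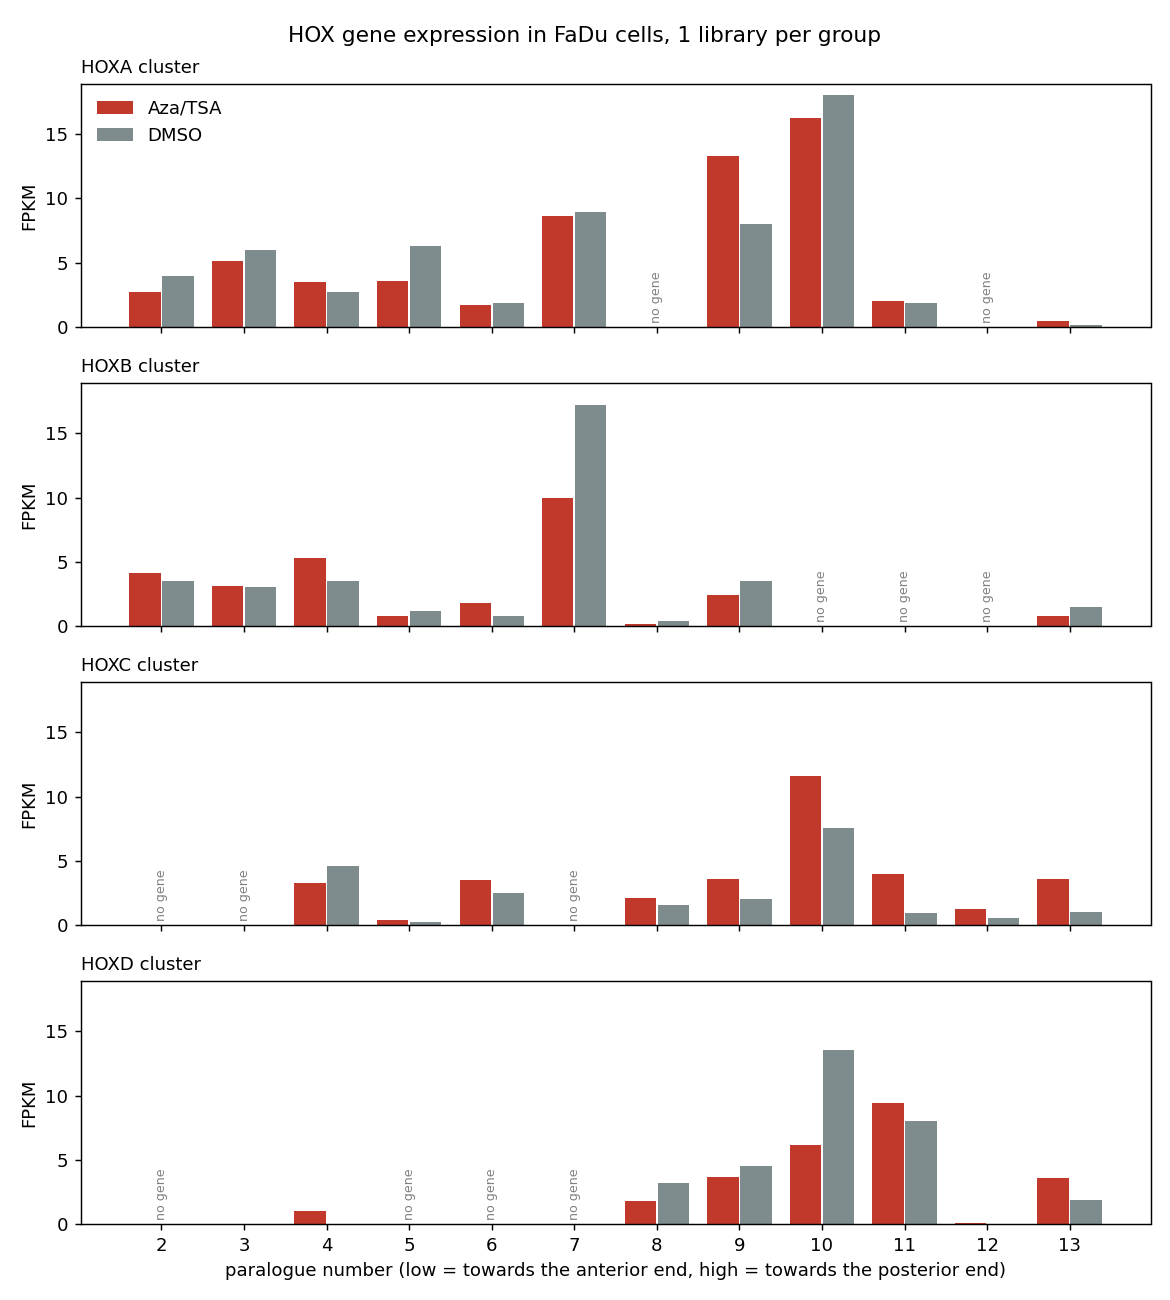
FPKM of the HOX genes of paralogue groups 2 to 13 in the treated (red) and DMSO (grey) library of FaDu, by cluster and paralogue number, 1 bar per library and no error bars; "no gene" marks paralogues that the cluster lacks. HOXA10 is the highest gene in both libraries (16.3 and 18.03 FPKM), HOXB7 and HOXD10 have taller grey bars, and HOXC9 to HOXC13 have taller red bars.

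The HOXA cluster was on along nearly its whole length in both libraries. None of its genes was called higher or lower, against 16.1% and 5.21% of all measured genes. Of its 11 genes 10 reached 1 FPKM in each library, and all 11 summed to 60.4 FPKM in the treated and 61.2 FPKM in the DMSO library. The anterior genes HOXA2 and HOXA3, which pattern the hindbrain and its neural crest, were 2.69 and 5.13 FPKM in the treated library and 3.94 and 5.97 FPKM in the DMSO library. HOXA4 was 3.48 FPKM in the treated and 2.70 FPKM in the DMSO library, and HOXA6 was 1.69 and 1.89 FPKM. HOXA5, which is reported as silenced by promoter methylation in breast carcinoma, was 3.57 FPKM in the treated and 6.27 FPKM in the DMSO library, the lowest change of the cluster (log2 −0.67). HOXA7 was 8.67 FPKM in the treated and 8.93 FPKM in the DMSO library, a level that hardly differed.

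HOXA10 was the highest gene of the cluster in both libraries. HOXA9, known for its role in blood stem cells and in leukaemia, was 13.3 FPKM in the treated and 8.03 FPKM in the DMSO library, the widest upward difference of the cluster (log2 0.67) and short of 2-fold. HOXA10 itself, which patterns the uterus and limb, was 16.3 FPKM in the treated and 18.03 FPKM in the DMSO library, and HOXA11 was 1.99 and 1.90 FPKM. The end gene HOXA13, needed for digits and for the genital tract, was 0.438 FPKM in the treated and 0.180 FPKM in the DMSO library, and HOTTIP, a noncoding RNA from its far side that is known to help activate posterior HOXA genes, was listed at 0 in both. HOTAIRM1, a noncoding RNA of the anterior end of the cluster, was 4.57 FPKM in the treated and 11.7 FPKM in the DMSO library, a log2 change of −1.19 that passed the 2-fold rule, while HOXA2 near it did not.

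In the HOXB cluster 6 of 10 genes reached 1 FPKM in the treated library and 7 in the DMSO library. None was called, where 16.1% of all measured genes were called higher and 5.21% lower. The cluster summed to 28.5 FPKM in the treated and 34.6 FPKM in the DMSO library. HOXB7, which is often overexpressed in carcinomas, was 9.99 FPKM in the treated and 17.2 FPKM in the DMSO library (log2 −0.73), a wider gap than that of the cluster's sum. HOXB2, HOXB3 and HOXB4 were 4.13, 3.16 and 5.27 FPKM in the treated library and 3.49, 3.02 and 3.52 FPKM in the DMSO library. HOXB6 was 1.78 FPKM in the treated and 0.818 FPKM in the DMSO library (log2 0.61), against HOXB5 on one side at 0.810 and 1.18 FPKM, and HOXB8 beyond HOXB7 at 0.184 and 0.368 FPKM. HOXB9 was 2.41 FPKM in the treated and 3.51 FPKM in the DMSO library. HOXB13, a prostate and hindgut gene that lies apart from the rest of the cluster, was 0.777 and 1.49 FPKM, and HOXB1, a hindbrain gene, was listed at 0 in both libraries.

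In the HOXC cluster 8 of 9 genes had positive changes, against 6 of 9 in HOXD, 4 of 11 in HOXA and 4 of 10 in HOXB, and its 2 called genes lie near its posterior end. With the GC trend subtracted 6 of the 8 measured HOXC genes were above 0 and none was called. On that scale 6319 of the 12521 measured genes with a GC value were above 0. The 9 genes summed to 33.3 FPKM in the treated and 21.1 FPKM in the DMSO library, a ratio of 1.58, and the 5 genes HOXC9 to HOXC13 to 24.0 and 12.1 FPKM, a ratio of 1.99. HOXC11 was 3.996 FPKM in the treated and 0.975 FPKM in the DMSO library, a 4.10-fold ratio and a log2 change of 1.34, which was 0.91 with the GC trend subtracted and 0.59 with a pseudocount of 5 FPKM, both short of 2-fold. HOXC13, which drives the keratin genes of hair and nail, was 3.59 FPKM in the treated and 1.03 FPKM in the DMSO library, a 3.47-fold ratio and a log2 change of 1.17, which was 0.56 with the GC trend subtracted and 0.51 with a pseudocount of 5 FPKM. HOXC12 between them was 1.29 FPKM in the treated and 0.555 FPKM in the DMSO library (log2 0.56, or −0.11 with the GC trend subtracted), and HOTAIR, which lies between HOXC11 and HOXC12 on the other strand and is known as a partner of Polycomb, stayed under 1 FPKM at 0.643 and 0.420.

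The other HOXC genes differed by less than 2-fold. HOXC10 was 11.6 FPKM in the treated and 7.53 FPKM in the DMSO library (log2 0.56), HOXC9 was 3.56 and 2.00 FPKM (0.60), and HOXC8 was 2.08 and 1.57 FPKM (0.26). HOXC6 was 3.52 FPKM in the treated and 2.50 FPKM in the DMSO library, HOXC5 was 0.407 and 0.245 FPKM, and HOXC4, at the anterior end, was 3.25 and 4.64 FPKM (log2 −0.41), the only gene of the cluster with a negative change. HOXC4, HOXC5 and HOXC6 are known to share a promoter and a first exon in some transcripts, so the split of reads among them is uncertain. Across the 9 genes the Spearman correlation of paralogue number with the change was 0.83, and 0.72 with the GC trend subtracted, as a description of genes that share 1 pair of libraries. The same values were 0.52 and 0.35 over the 11 HOXA genes, −0.60 and −0.70 over the 10 HOXB genes, and −0.13 and −0.08 over the 9 HOXD genes.

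In the HOXD cluster HOXD1 and HOXD4, at or near 0 in DMSO cells, had low levels in treated cells. HOXD3, which lies between them, stayed under 0.1 FPKM in both libraries. Further along 5 genes reached 1 FPKM in DMSO cells. Of these HOXD8, HOXD9 and HOXD10 were lower in treated cells and HOXD11 and HOXD13 higher, with only HOXD10 past 2-fold. HOXD1, HOXD3 and HOXD4 were 0.740, 0.0568 and 1.03 FPKM in the treated library, against 0.0336, 0.0284 and 0 FPKM in the DMSO library. HOXD4 was the only HOX gene to go from under 0.1 FPKM in DMSO cells to 1 FPKM or more in treated cells, 1 of the 5 HOX genes under 0.1 FPKM, against 5.25% of the 9984 genes under 0.1 FPKM in the DMSO library. It was called higher with a log2 change of 1.02, just past the rule, and was not called with the GC trend subtracted (0.41) or with a pseudocount of 5 FPKM (0.27). No fold is given against a value of 0. HOXD1 had a log2 change of 0.75 and, since it stayed under 1 FPKM, was not counted as measured. HOXD12 was listed at 0 in the DMSO library and was 0.0979 FPKM in the treated library.

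The genes from HOXD8 to HOXD11 reached 1 FPKM in both libraries, as did HOXD13 beyond the low HOXD12. HOXD10, which is studied as a target of the microRNA miR-10b, was 6.14 FPKM in the treated and 13.5 FPKM in the DMSO library, a log2 change of −1.02, just past the rule in the other direction, and 2.20-fold higher in DMSO by the plain ratio. With the GC trend subtracted its change was −1.37, and with a pseudocount of 5 FPKM it was −0.73, short of 2-fold. HOXD8 was 1.82 FPKM in the treated and 3.18 FPKM in the DMSO library (log2 −0.57), and HOXD9 was 3.649 and 4.4996 FPKM (−0.24). HOXD11 was 9.41 FPKM in the treated and 8.04 FPKM in the DMSO library (log2 0.20, or −0.43 with the GC trend subtracted), and HOXD13, the limb gene at the end, was 3.62 and 1.88 FPKM (log2 0.68). The next gene to HOXD10 below the 2-fold rule was HOXB7 at −0.73, and the next to HOXD4 among measured genes was HOXD13 at 0.68.

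**Figure D2:**
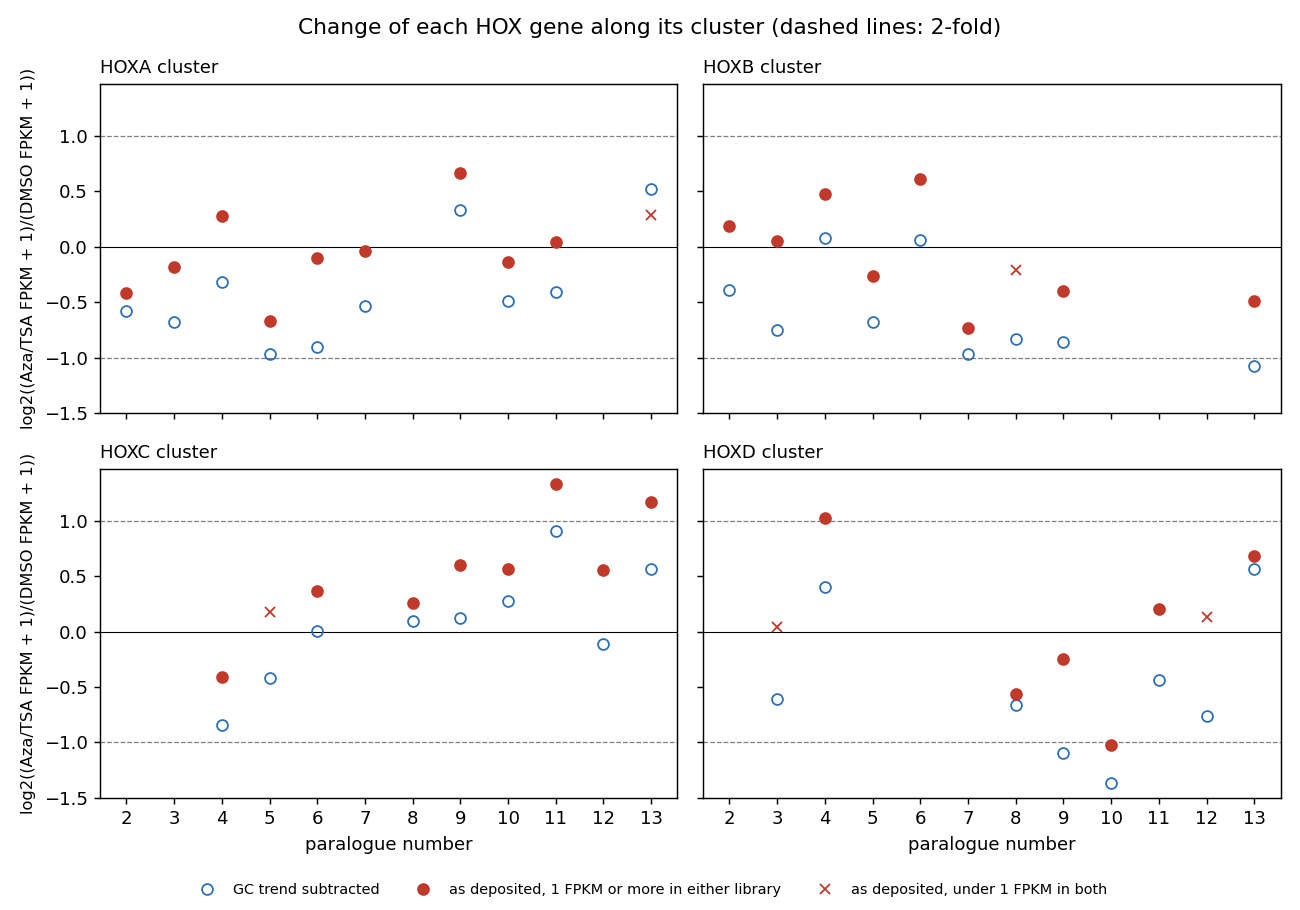
log2 change of the HOX genes of paralogue groups 2 to 13 (treated over DMSO, FPKM + 1) in each cluster; filled points are genes at 1 FPKM or more in either library, crosses are genes under 1 FPKM in both, open circles are values with the GC trend subtracted and dashed lines mark 2-fold. HOXC11 (1.34), HOXC13 (1.17) and HOXD4 (1.02) lie above the upper line as deposited and below it once the GC trend is subtracted, and HOXD10 (−1.02) lies below the lower line on both scales.

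Grouped by position, the 14 measured posterior genes (paralogue groups 9 to 13) had a median log2 change of 0.38, against −0.04 for the 13 central genes (groups 4 to 8) and −0.06 for the 5 anterior genes (groups 1 to 3); with the GC trend subtracted the posterior median turned negative, at −0.26, and the others were −0.53 and −0.58. The posterior genes held 2 of the 3 called higher and the 1 called lower. These were 14.3% and 7.14% of the 14, near the 16.1% and 5.21% of all measured genes. Paralogues of one group had changes of one sign in some groups and of both signs in others. Both genes of group 7, at −0.04 (HOXA7) and −0.73 (HOXB7), were negative, and all 3 of group 11 and both of group 12 were positive, of which 1 of 3 in group 11 and neither in group 12 was above 0 with the GC trend subtracted. In group 13, HOXC13, HOXD13 and HOXA13 were higher in treated cells and HOXB13 was lower, and in group 9 HOXA9 and HOXC9 were higher and HOXB9 and HOXD9 lower, by the values above and with only HOXC13 past 2-fold. These signs were the same with the GC trend subtracted, which also took HOXB13 and HOXD9 past 2-fold. In group 10, HOXC10 was higher, HOXA10 close to its DMSO level and HOXD10 lower.

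The lowest values may rest on few reads. Over 1316 genes between 0.001 and 0.2 FPKM in both libraries, 58.0% had a ratio between the libraries within 0.02% of a ratio of whole numbers up to 6, after the worth of 1 read was set to 1.00 times that of the DMSO library, against a median of 0.0760% at other settings. Of the 6 members that were above 0 and under 1 FPKM in both libraries, 2 had such a ratio. HOXD3 had a ratio of 2.00 of treated to DMSO, and HOXB8 one of 2.00 of DMSO to treated. HOXD1, also among the 6 members, had a ratio of 22.0 of treated to DMSO, a whole number above the largest one counted. Its DMSO value of 0.0336 FPKM may therefore rest on few reads. Read numbers cannot be had from FPKM, so these differences carry no counting interval.

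The change of a gene moved with the GC content of its transcript, and HOX transcripts are rich in GC. Over the 7123 genes that reached 5 FPKM in each library the Spearman correlation of the log2 change with GC content was 0.67. The median GC content was 55.3% over the 41 members and 48.7% over those genes, and 39 of the 41 members lay above 48.7%. When the lowess trend of the change on GC content was subtracted, no member was called higher and 3 were called lower (HOXD10 at −1.37, HOXD9 at −1.10 and HOXB13 at −1.07), against 7.27% and 4.57% of the 12521 measured genes with a GC value. The median of the measured members was then −0.42 and that of all measured genes 0.01. Below 0 were 21 of the 32 members and 6202 of the 12521 genes. The trend was fitted on genes at higher levels than many HOX genes, for which the subtraction can be too strong. Among the 8 HOX genes that reached 5 FPKM in each library the median was −0.09 as deposited and −0.51 with the trend subtracted. Whether the trend comes from the libraries or from the cells was not tested.

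**Figure D3:**
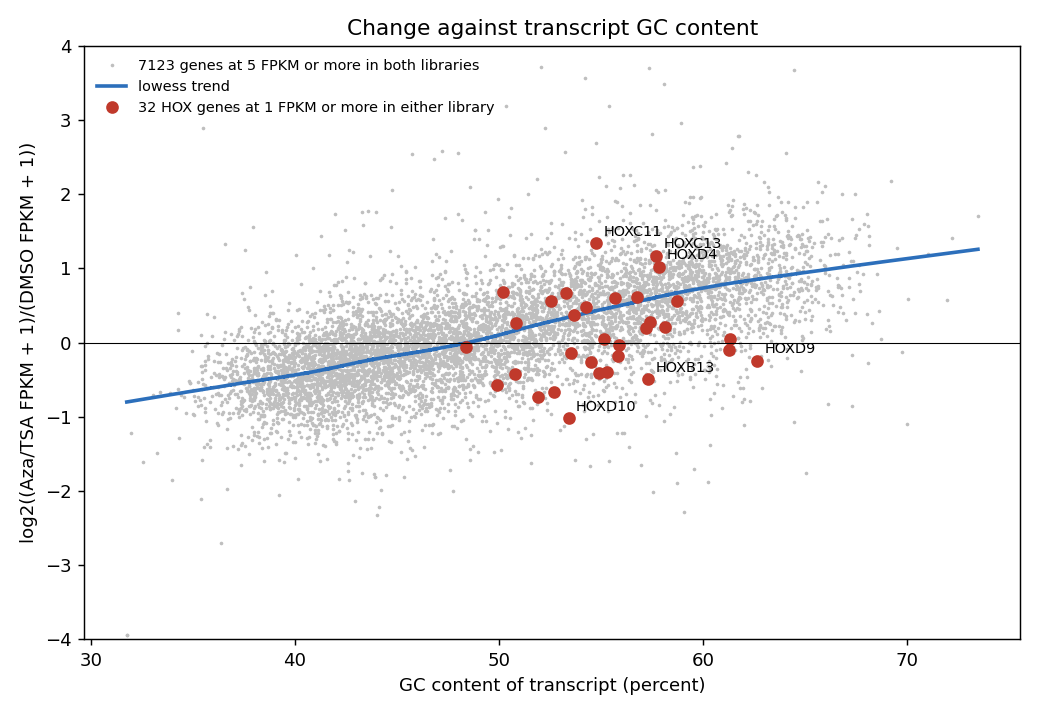
log2 change (treated over DMSO, FPKM + 1) against the GC content of the transcript for the 7123 genes that reached 5 FPKM in each library (grey), their lowess trend (blue line) and the 32 measured HOX genes (red); 2 genes lie outside the plotted range. Most HOX genes lie under the trend, 21 of 32, with HOXC11 and HOXC13 above it. Of all 12521 measured genes with a GC value, not all of them drawn, 6202 lie under it. The trend was fitted on genes at higher levels than many HOX genes, for which the subtraction can be too strong.

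HOX proteins bind DNA with TALE homeodomain partners of the PBX, MEIS and PKNOX families. Of the 9 TALE genes listed 6 were measured and none was called higher or lower (median log2 0.16); with the GC trend subtracted 1 was lower. PBX2 was 27.3 FPKM in the treated and 16.1 FPKM in the DMSO library (log2 0.73), PBX3 was 2.13 and 1.47 FPKM, and MEIS2 was 8.68 and 7.26 FPKM.

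RNA for subunits of the complexes that keep HOX genes silent or active was present in both libraries, and the proteins were not measured. In Polycomb repressive complex 2, which methylates histone H3 at silent HOX genes, 2 of 12 measured genes were higher and none lower (16.7% and 0%; median log2 −0.24), a share higher that is close to that of all measured genes, of which 16.1% were higher and 5.21% lower. With the GC trend subtracted 1 was higher and 0 lower (median −0.02), where all genes gave 7.27% and 4.57%. Its catalytic subunit EZH2 was 18.9 FPKM in the treated and 27.5 FPKM in the DMSO library. The accessory genes C17orf96 and PHF1 were higher, at 25.4 and 15.8 FPKM in the treated and 3.03 and 5.07 FPKM in the DMSO library, while AEBP2 was 11.01 and 19.8 FPKM and PHF19 23.3 and 15.4 FPKM. In Polycomb repressive complex 1 4 of 20 were higher and 1 lower (20.0% and 5.0%; median 0.33), shares also near those of all genes, and with the trend subtracted 1 and 1 (median 0.05). The chromodomain reader CBX8 was 11.9 FPKM in the treated and 3.82 FPKM in the DMSO library, PCGF2 30.9 and 12.5 FPKM, PHC2 17.6 and 7.18 FPKM, and PCGF5, the lower one, 2.76 and 7.58 FPKM.

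In the Trithorax and MLL list, whose complexes keep HOX genes active, 3 of 21 measured genes were higher and 1 lower (14.3% and 4.76%, against 16.1% and 5.21% of all measured genes; median 0.45), and with the GC trend subtracted 0 and 1 (median −0.07). MLL4, as the table spells it, was 11.01 FPKM in the treated and 3.85 FPKM in the DMSO library, the H3K27 demethylase KDM6B 11.4 and 4.83 FPKM, HCFC1 18.6 and 8.56 FPKM, and PSIP1, which tethers MLL and menin to chromatin, was lower at 58.4 and 145 FPKM. MLL itself was 8.96 FPKM in the treated and 8.94 FPKM in the DMSO library.

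Retinoic acid is the classical inducer of anterior HOX genes. Of 14 measured genes of its pathway 5 were higher and none lower (35.7% and 0%, against 16.1% and 5.21% of all measured genes; median 0.88). With the GC trend subtracted 2 were higher and 0 lower (median 0.41), where all genes gave 7.27% and 4.57%. The retinoic acid carrier CRABP2 was 22.4 FPKM in the treated and 4.46 FPKM in the DMSO library, the retinoic acid hydroxylase CYP26B1 6.21 and 1.78 FPKM and the retinol transporter STRA6 1.85 and 0.138 FPKM. The receptor RARA was also higher, at 13.5 FPKM in the treated and 4.98 FPKM in the DMSO library. With the GC trend subtracted CRABP2 stayed past 2-fold (log2 1.60), while CYP26B1 (0.82), STRA6 (0.53) and RARA (0.43) did not.

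**Figure D4:**
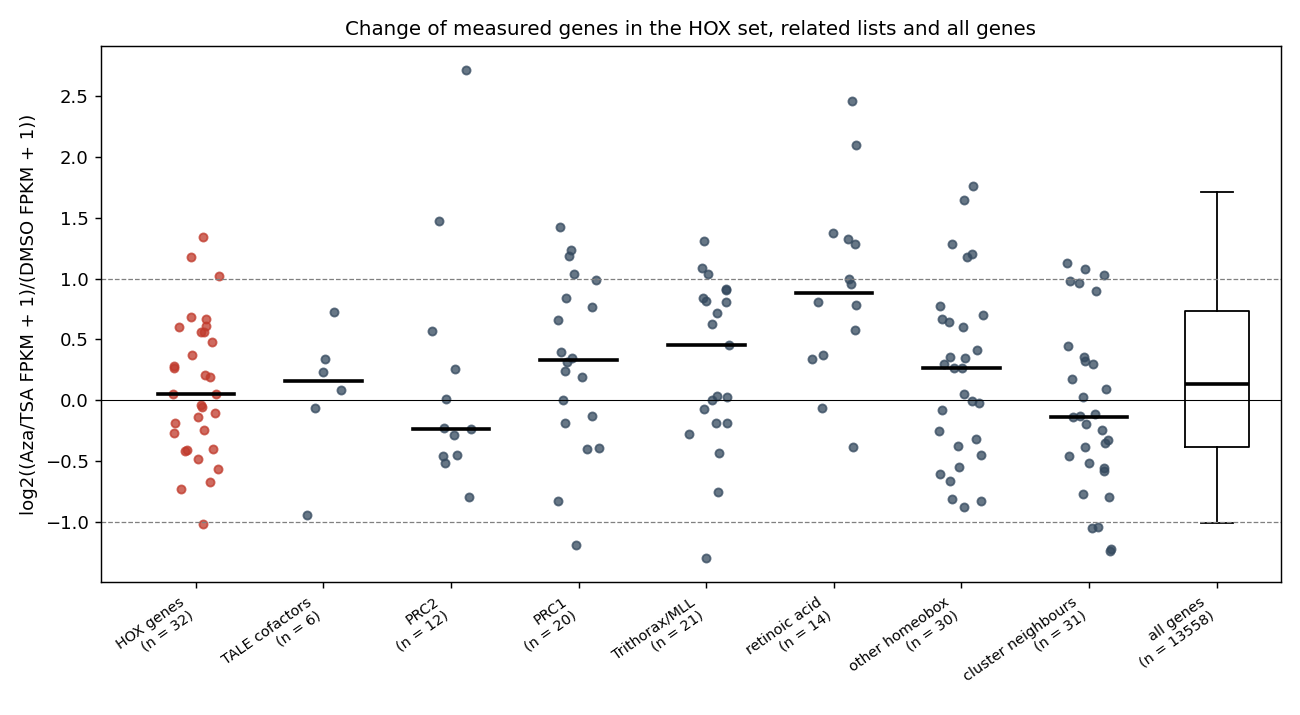
log2 change (treated over DMSO, FPKM + 1) of the measured genes of each list, 1 point per gene with the median as a bar, beside all 13558 measured genes as a box (quartiles, whiskers at the 5th and 95th percentile); dashed lines mark 2-fold. The HOX points lie between −1.02 and 1.34 with a median of 0.05, and the retinoic acid genes have the highest median, 0.88.

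Other homeobox genes were called higher at a share of 16.7%, close to the 16.1% of all measured genes. Of 68 listed from families outside the clusters 30 were measured, 5 were higher and none lower (median 0.26). With the GC trend subtracted 0 were higher and 5 lower, 16.7% of the 30 (median −0.32), where all genes gave 7.27% and 4.57%. None of the higher genes named next was then called higher. IRX4 was 18.3 FPKM in the treated and 4.69 FPKM in the DMSO library, BARX1 2.70 and 0.186 FPKM, LMX1B 3.22 and 0.737 FPKM and SIX5 4.89 and 1.56 FPKM. Of 13 ParaHox genes and close relatives of the HOX clusters 3 were measured and none was called. PDX1 was 0.603 FPKM in the treated and 1.08 FPKM in the DMSO library, GBX2 1.11 and 0.685 FPKM and MNX1 1.85 in both, and with the GC trend subtracted PDX1 was lower (−1.11). EVX1 and EVX2, which cap the posterior ends of HOXA and HOXD, were listed at 0 in both libraries.

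The protein-coding genes around the clusters were also followed. From the RefSeq gene order on GRCh38.p14, 38 of the nearest 40 protein-coding genes, 5 on each side of each cluster, matched a symbol of the table, and 31 were measured. Of these 3 were higher and 4 lower (9.68% and 12.9%, against 16.1% and 5.21% of all measured genes; median −0.14), and with the GC trend subtracted 0 and 1 (median −0.04). Changes were positive for 2 of 10 matched neighbours of HOXA, 7 of 10 of HOXB, 7 of 9 of HOXC and 2 of 9 of HOXD. Over all 25548 gene symbols 11912 were positive and 8138 negative. The 3 higher genes, SNF8, ATP5G1 and UBE2Z, lie together beyond HOXB13 and were 65.3, 103 and 65.1 FPKM in the treated and 29.4, 48.4 and 31.4 FPKM in the DMSO library. The 4 lower genes were SNX10 and HIBADH beside HOXA, CBX5 beside HOXC and NFE2L2 beside HOXD. SNX10 was 2.94 FPKM in the treated and 8.29 FPKM in the DMSO library, and NFE2L2, the transcription factor NRF2, was 48.3 and 114 FPKM. Beside HOXC, ATP5G2, SMUG1 and CALCOCO1 were just short of 2-fold, with log2 changes of 0.98, 0.96 and 0.90. HOXB13, the HOX gene nearest to the 3 higher neighbours, had a negative change (log2 −0.49).

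Within the clusters 36 other RefSeq genes are annotated, of which 12 matched a symbol of the table, and HOTAIRM1 was the only one measured. The antisense RNA beside HOXA11 (HOXA11-AS1) was 0.841 FPKM in the treated and 0.753 FPKM in the DMSO library, and that beside HOXB13 (HOXB13-AS1) 0.829 and 0.166 FPKM. The kit keeps the strand of the RNA, but whether the counting used it is not given in the sources used here, so reads of overlapping antisense partners may be shared. The microRNA genes MIR10A, MIR10B, MIR196A1, MIR196A2, MIR196B and MIR615, which lie in the clusters, were listed at 0 in both libraries, and an mRNA library kit is not made to measure mature microRNAs. The read-through gene HOXA10-HOXA9 was listed at 2.28e-06 FPKM in the treated and 9.41e-06 FPKM in the DMSO library, estimates too small to be counts of reads.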

How the data were processed

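The authors deposited 1 table of FPKM, whose header names the libraries and whose rows are gene symbols. The submitters' processing notes list TopHat 1.3.2, Cufflinks 2.0.2 and the build hg19. For annotation, strand setting, filters and scaling, details were not given in the sources used here. The 45 repeated rows were summed to 25548 symbols. Changes used a pseudocount of 1 FPKM, a filter at 1 FPKM in either library and a 2-fold rule, with no test, since each group has 1 library. GC content was the median over GENCODE release 29 transcripts, and the lowess trend (statsmodels 0.14.6, fraction 0.3) was fitted on genes that reached 5 FPKM in each library. The computation of calls and the GC subtraction were checked on simulated data with known changes, which says nothing of the calls in these libraries. The HOX members were named or counted, and up to 4 genes with the widest change were named from each other list; EZH2, MLL, RARA, EVX1 and EVX2, the named neighbours and genes inside the clusters were chosen after their values were seen. Members and lists were chosen with earlier results of these data known. Promoter windows came from RefSeq (GRCh38.p14), and no coordinates were converted from hg19. Some results are not reported here. The depth is unknown. Alternatives changed the pseudocount, filter, scaling, fold, repeated rows, GC correction and position classes.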

Additional observations from a re-analysis of the deposited data

How the results depend on the processing

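With 1 library per group no replicate could be left out. No paired analysis was possible because each group has 1 library and no test was run. The counts of HOX members called higher and lower were 3 and 1. A pseudocount of 0.1 FPKM gave 5 higher, a pseudocount of 5 FPKM 0 and 0, a filter at 5 FPKM 0 higher, subtraction of the GC trend 0 and 3, a 4-fold rule 0 and 0, a 1.5-fold rule 7 and 3, and a filter at 1 FPKM in DMSO only, chosen after seeing the data, 1 higher. All genes gave 2178 higher and 706 lower, with 1182 lower at a pseudocount of 0.1, 893 and 253 at 5, 1152 lower with TPM scaling, 910 higher with the GC trend subtracted, 496 and 91 at 4-fold, 4160 and 2187 at 1.5-fold, and 1261 higher with the DMSO filter. Calls were 75.5% higher over all genes, 61.4% with the GC trend subtracted and 64.1% with the DMSO filter. The members' median of 0.0483 was 0.0657 at a pseudocount of 0.1, 0.0225 at 5, 0.0743 with TPM scaling, −0.0893 with the filter at 5 FPKM, −0.419 with the GC trend subtracted (−0.421 over all 41 members) and −0.0475 with the DMSO filter. Subtracting the GC trend moved the median of all measured genes by −0.12. HOX genes switched on numbered 1, or 2 when 0.5 FPKM sufficed in treated cells, HOXD1 being the second. The anterior median of −0.0568 was −0.0721 and −0.0293 at pseudocounts of 0.1 and 5, 0.0197 without a filter, −0.185 with the filter at 5 FPKM, −0.0653 with TPM scaling, −0.582 with the GC trend subtracted and 0.0491 with paralogue group 4 counted as anterior. The central median of −0.0381 was −0.0271 at a pseudocount of 5, −0.355 with the filter at 5 FPKM, −0.107 with TPM scaling, −0.535 with the GC trend subtracted and −0.104 without group 4. The posterior median of 0.382 was 0.4205 and 0.162 at pseudocounts of 0.1 and 5, 0.244 without a filter, 0.204 with the filter at 5 FPKM, 0.336 with TPM scaling, −0.257 with the GC trend subtracted and 0.126 with the DMSO filter. The causes were not tested. Values of single HOX genes were compared under all of these settings except the 4-fold and 1.5-fold rules. Of these values 219 kept their side of the 2-fold rule, 7 moved inside it and 4 went past it. The filters and the choice among repeated rows leave a member's change as it was, so values under them could not move, and the 219 include them. All moves came with a changed pseudocount or with the GC trend subtracted. Depth limits the genes under 1 FPKM, whose values may rest on few reads.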
